A study of Mus musculus with 6 samples.

Results

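The genes of the collagen, laminin and mesenchymal matrix were examined in retinal explants of Sall3 knockout and wild-type mice. The set holds 36 genes chosen by name, of 19611 genes with a named probe group in the whole series. They encode collagens, laminin chains, the molecules that link them in basement membranes, matrix proteins of mesenchymal cells, and 3 transcription factors of head mesenchyme. Sall3 belongs to the Spalt genes, whose zinc finger proteins regulate transcription. Each gene was read from the transcript cluster that carries its symbol alone, a group of probes along the exons of a transcript, taking the brightest cluster over the 6 arrays. A named cluster was found for 34 of the genes, and 33 of these lay above the filter on low values. Lamb2 and Fbn1 had no named cluster used here, and Lum, which encodes the small proteoglycan lumican, lay below the filter.

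The tested explants came from mice described as Sall3 knockout, without a named allele, and the others from wild-type mice. Strain C57BL/6 and mixed sex were given for both groups. Retinas were isolated on postnatal day 0 and floated on filters for 7 days in medium with fetal bovine serum. RNA of 3 pooled retinas made 1 sample, and each group had 3 samples, each on its own Affymetrix exon array. Whether litters or culture runs differed between samples is not given, and p-values therefore measure no more than the spread of these samples, which may be technical. Values are log2 signals after quantile normalization between arrays, and a change is knockout minus wild type on that scale.

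A basement membrane is a thin sheet built from a network of laminin trimers and a network of type IV collagen, joined by nidogens and heparan sulfate proteoglycans. In the eye it forms the inner limiting membrane, to which the endfeet of Müller glia attach, and it surrounds vessels and lens. Fibrillar collagens, collagen VI, fibronectin, decorin and periostin belong to the interstitial matrix that fibroblasts and other mesenchymal cells lay down around the eye. The retina itself is made of neurons and glia, with vessels and their pericytes, and glia also make some matrix proteins.

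The arrays carried the transcripts of the labelled tissue. The photoreceptor gene Rom1 had 11.95, 11.93 and 12.01 in knockout explants, against 11.92, 11.93 and 11.90 in wild-type explants, and Pde6b had 11.37, 11.41 and 11.47 in knockout explants, against 11.39, 11.42 and 11.41 in wild-type explants. Both are bright on every array. Sall3 had 6.24, 6.05 and 6.13 in knockout explants, against 6.21, 6.36 and 6.33 in wild-type explants. The groups overlapped, at a change of -0.16 (SE 0.10, limma adjusted p = 0.877), and since the position of its probes against the deleted part is unknown, the genotype labels could not be checked by it. Knockout 1 stood apart on the axis of largest variance, at -98.5, and wild-type 3 lay toward the other end, at 62.5. The remaining arrays lay at 2.87 to 11.9. Changes of single genes that moved by over 1.5 times or turned without knockout 1 are given both ways.

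No matrix gene passed the test of knockout against wild type, and most had slightly lower values in knockout explants. Of the 33 genes measured, 29 had lower and 4 higher values, with a median change of -0.06, beside a median of -0.01 and 54.7% lower values over all 17468 genes. Changes ranged from -0.29 for the fibronectin gene Fn1 to 0.18 for the nidogen gene Nid1, and 32 of the 33 lay within 0.2 of zero. After adjustment over all 75632 clusters 0 of the 33 were called in limma, where 0% of all genes were called, and the smallest adjusted p was 0.812, for Foxc1. At an unadjusted limma p under 0.05 there were again 0 lower and 0 higher, beside 1.05% and 0.544% of all genes. In all 33 genes the 95% interval of the change included zero, and in 31 it lay within 0.5 on the log2 scale to either side, which is 1.41-fold. The exceptions were Fn1 and Nid1.

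**Figure D1:**
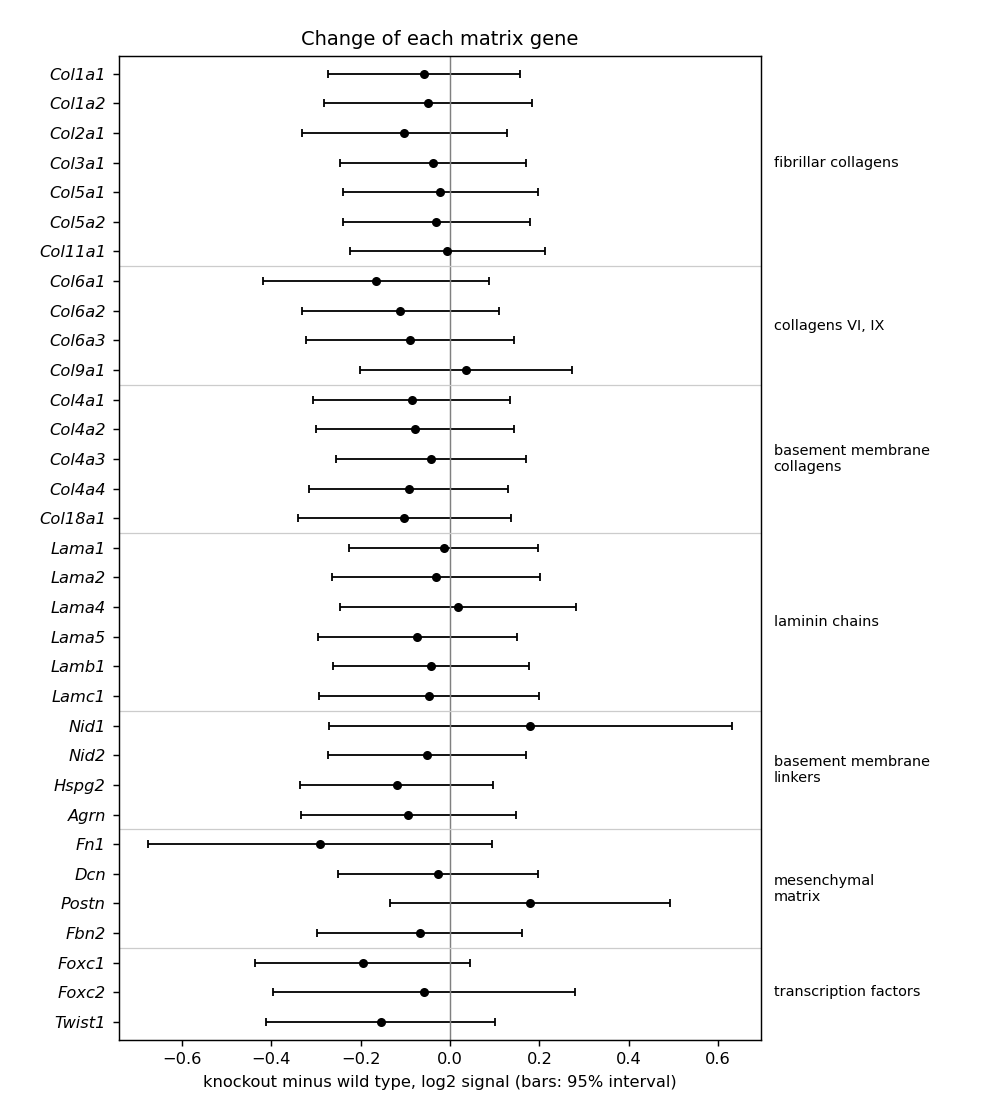
Change of each measured matrix gene in knockout against wild-type explants (horizontal axis, log2 signal), grouped by role, with points for the fitted change and bars for the 95% interval from limma (3 arrays per group). Each interval crosses zero, 29 of 33 points lie below it, and Fn1 and Nid1 have the widest bars.

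The number of genes with groups apart depended on the scaling, while the median change lay below that of all genes on both scales. With the values as deposited 27 of the 33 were lower, with a median of -0.04. Only 42.6% of all genes were lower there, with a median of 0.01. Every knockout value was below every wild-type value in 9 of the 33 genes and above it in 0, beside 11.2% and 1.7% of all genes. With the values as deposited the same held for 3 and 0, beside 3.75% and 4.6% of all genes. Among the 34 named matrix genes, 19 had exactly the same deposited value on 3 or more arrays, as had 36.9% of all genes above the filter. Arrays that share a deposited value are separated on the scale used here only by their scaling. Without knockout 1, 32 of the 33 were lower, beside 73% of all genes, and 16 of the 33 changes moved by over 1.5 times or turned. The median change without knockout 1 was -0.08 in the matrix genes, beside -0.05 over all genes. Without wild-type 3, 30 of the 33 were lower, beside 65.8% of all genes. The medians then were -0.06 in the matrix genes and -0.03 over all genes. In bulk tissue fewer cells of a type and less RNA per cell cannot be told apart.

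**Figure D2:**
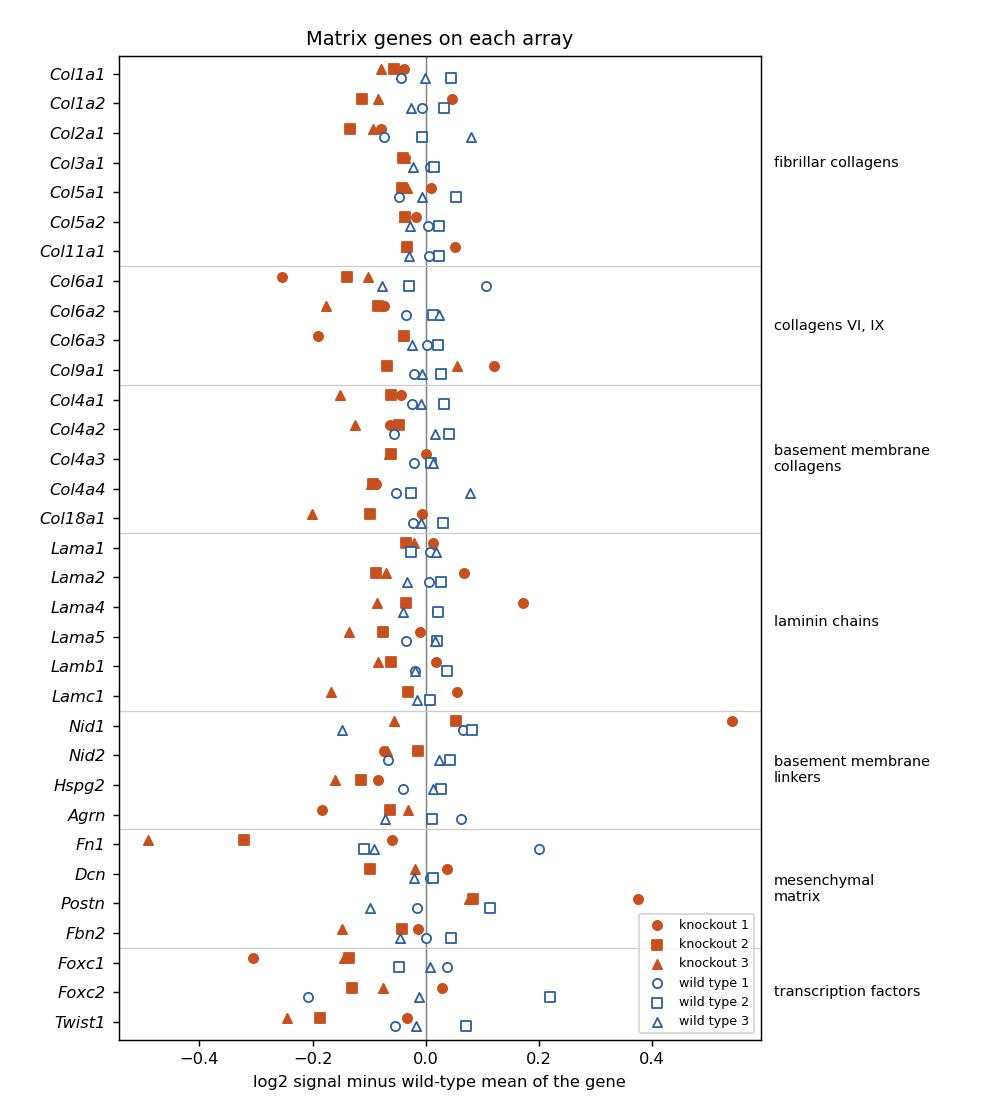
Signal of each measured matrix gene on each of the 6 arrays, as the difference from the gene's wild-type mean (horizontal axis, log2), with knockout arrays as filled orange symbols above wild-type arrays as open blue symbols. Most points lie within 0.2 of zero, and knockout 1 stands far to the right in Nid1 and Postn.

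Single arrays stood out within both groups. Knockout 3 had the lowest value of all arrays in 17 of the 33 genes (51.5%, beside 20.8% of all genes), and wild-type 2 had the highest in 15 (45.5%, beside 23.9% of all genes). Knockout 1 was highest in 9 genes (27.3%, beside 45.6% of all genes). Wild-type 3 was lowest in 2 (6.06%, beside 32.2% of all genes). The median of the matrix genes relative to their wild-type means was -0.01, -0.06 and -0.08 in knockout 1, 2 and 3, against -0.02, 0.02 and -0.02 in wild-type 1, 2 and 3. Over all genes the medians were 0.06, -0.05 and -0.04 in the knockout arrays, against -0.0026, 0.04 and -0.03 in the wild-type arrays. Knockout 1 thus lay near wild-type 1 and wild-type 3 in the matrix genes, and above both in the genes as a whole.

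The fibrillar collagens form the banded fibres that give connective tissue its strength, and 7 of 7 had lower values in knockout explants by small amounts, with a median of -0.04. Col1a1, a chain of the type I collagen of bone, skin and sclera, had 6.77, 6.75 and 6.73 in knockout explants, against 6.76, 6.85 and 6.81 in wild-type explants. Its partner chain Col1a2 had 6.20, 6.04 and 6.07 in knockout explants, against 6.15, 6.19 and 6.13 in wild-type explants. In both genes the groups overlapped, and the changes were -0.06 and -0.05, the second -0.10 without knockout 1. Col2a1, the collagen of cartilage and of the vitreous, had 8.64, 8.58 and 8.62 in knockout explants, against 8.64, 8.71 and 8.80 in wild-type explants. The groups did not overlap, though knockout 1 and wild-type 1 nearly met, and as deposited they overlapped. The change was -0.10, with a 95% interval of -0.33 to 0.13. Col3a1, the collagen of distensible tissues such as vessel walls, stood at -0.04, and its deposited value was the same on 4 arrays. Col5a1 and Col5a2, chains of the collagen that starts type I fibrils, stood at -0.02 and -0.03, and Col11a1, which does the same for the cartilage collagen, at -0.01. Without knockout 1 Col5a1 and Col11a1 stood at -0.04 and -0.03. Col5a1 stood at 0.01 with the values as deposited, and Col11a1 changed sign without knockout 2, without knockout 3 or without wild-type 2. The other cluster of Col5a2 lay below the filter.

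Collagen VI forms beaded filaments beside basement membranes, and its 3 chains had some of the larger differences among the collagens. Col6a1 had 8.59, 8.71 and 8.74 in knockout explants, against 8.95, 8.82 and 8.77 in wild-type explants. Col6a2 had 6.35, 6.34 and 6.25 in knockout explants, against 6.39, 6.43 and 6.44 in wild-type explants. Col6a3 had 5.37, 5.52 and 5.52 in knockout explants, against 5.56, 5.58 and 5.53 in wild-type explants. In each chain the 3 knockout values were below the wild-type values, for Col6a1 and Col6a3 by narrow margins. The changes were -0.16 (95% interval -0.42 to 0.09), -0.11 (-0.33 to 0.11) and -0.09 (-0.32 to 0.14), and Col6a3 stood at -0.04 without knockout 1. As deposited, the groups remained apart in Col6a2, while in Col6a1 and Col6a3 knockout 2 and knockout 3 had a value in common with wild-type arrays. Col9a1, which sits on the surface of cartilage and vitreous fibrils and is made in the eye by the ciliary epithelium, stood at 0.04 with overlapping groups, and at -0.0061 without knockout 1.

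The collagens of basement membranes were lower in 5 of 5 genes, with a median of -0.09. Col4a1 and Col4a2 encode the chains of the type IV collagen found in nearly all basement membranes. Col4a1 had 7.00, 6.98 and 6.89 in knockout explants, against 7.02, 7.08 and 7.04 in wild-type explants. Col4a2 had 6.87, 6.89 and 6.81 in knockout explants, against 6.88, 6.97 and 6.95 in wild-type explants. In both genes knockout 3 was lowest and wild-type 2 highest, and the changes were -0.09 and -0.08. The genes lie head to head, and in RefSeq (GRCm38.p6) the windows of 300 bases around their starts, on opposite strands, share 78 bases. Col4a3 and Col4a4, chains of the type IV collagen of kidney, cochlea and some eye membranes, are another head-to-head pair, and stood at -0.04 and -0.09, the first at -0.06 without knockout 1. Col4a4 had 5.73, 5.73 and 5.72 in knockout explants, against 5.77, 5.79 and 5.90 in wild-type explants, and its deposited value was the same on 4 arrays. Col18a1, the collagen whose end fragment is endostatin, had 6.95, 6.86 and 6.76 in knockout explants, against 6.94, 6.99 and 6.95 in wild-type explants. Knockout 1 lay among the wild-type arrays, and the change was -0.10 (95% interval -0.34 to 0.14).

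Laminins are trimers of an alpha, a beta and a gamma chain, and their genes differed little between the groups, with a median of -0.04 over the 6 measured chains, of which 5 were lower and none had groups apart. Lama1, the alpha chain of the first laminin of the embryo and of the inner limiting membrane, had 7.16, 7.12 and 7.13 in knockout explants, against 7.16, 7.12 and 7.17 in wild-type explants. The groups overlapped almost entirely, at a change of -0.01 (95% interval -0.23 to 0.20), which was 0.026 with the values as deposited and -0.03 without knockout 1. Lamb1 and Lamc1, the beta and gamma chains shared by many laminins, stood at -0.04 and -0.05, the second at 0.0124 without knockout 3. Without knockout 1 they stood at -0.07 and -0.10, and the median of the 6 chains at -0.08, beside -0.05 over all genes. Lamc1 had 7.75, 7.66 and 7.53 in knockout explants, against 7.70, 7.70 and 7.68 in wild-type explants, so that both the highest and the lowest array were knockouts. Lama5, the alpha chain of most adult basement membranes, stood at -0.07, and Lama2, that of muscle and nerve, at -0.03, or -0.08 without knockout 1. Lama4, the alpha chain of vessel walls, had 5.54, 5.33 and 5.28 in knockout explants, against 5.38, 5.39 and 5.32 in wild-type explants. Its change of 0.02 rested on knockout 1, and was -0.06 without it.

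The linkers of the basement membrane included the widest spread of the set. Nid1, which encodes nidogen 1 and binds laminin to type IV collagen, had 7.21, 6.72 and 6.62 in knockout explants, against 6.74, 6.75 and 6.52 in wild-type explants. Knockout 1 stood far above the other arrays, while the remaining 5 overlapped. The change of 0.18 (95% interval -0.27 to 0.63) was -0.0011 without knockout 1. Its relative Nid2 stood at -0.05. Agrn, the heparan sulfate proteoglycan agrin of synaptic and retinal basement membranes, had 9.36, 9.48 and 9.51 in knockout explants, against 9.60, 9.55 and 9.47 in wild-type explants. Here knockout 1 was lowest of all arrays, and the change of -0.09 was -0.05 without it. Hspg2, which encodes perlecan, the large heparan sulfate proteoglycan of basement membranes, had 6.53, 6.50 and 6.46 in knockout explants, against 6.58, 6.64 and 6.63 in wild-type explants. The groups did not overlap, on this scale or as deposited. The change was -0.12 (95% interval -0.34 to 0.10, limma adjusted p = 0.901), and when limma was fitted with 1 row per gene, in place of all clusters, the unadjusted p was 0.0454, with 3.4% of all genes lower at a p under 0.05.

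The bases before the start of Hspg2 are shown because its groups were apart on both scales and the stretch repeats 1 motif. The sequence is from RefSeq (GRCm38.p6, chr4:137468553-137468802, plus strand), with GC boxes, the letters GGGCGG or their other strand CCGCCC, in capitals.
Hspg2: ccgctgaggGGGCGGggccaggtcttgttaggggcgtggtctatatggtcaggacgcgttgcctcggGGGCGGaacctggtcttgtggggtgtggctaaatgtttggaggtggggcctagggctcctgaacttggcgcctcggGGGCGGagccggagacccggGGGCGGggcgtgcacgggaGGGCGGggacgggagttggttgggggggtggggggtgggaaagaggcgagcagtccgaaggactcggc
It holds 5 GC boxes, which bind Sp family factors, and neither a CCAAT box (CCAAT or ATTGG) nor a TATA box (TATAAA or TTTATA). RefSeq windows were found for 23 of the 36 genes, with 28 starts. In the 250 bases before the start, a GC box was present in 16 of the 28 windows (57.1%, beside 32.7% of all 32851 windows). A CCAAT box was present in 10 (35.7%, beside 33.9%) and a TATA box in 3 (10.7%, beside 12.4%). The median share of G and C was 62% in these windows, ranging from 35.2% before Col3a1 to 83.6% before Agrn, beside a median of 52.4% in all windows. A match of letters is a description and shows no bound factor.

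Among the matrix proteins of mesenchymal cells, Fn1 had the lowest change of the set and Postn a change among the highest. Fn1 encodes fibronectin, the glycoprotein through which integrins hold cells to matrix, and had 7.50, 7.24 and 7.07 in knockout explants, against 7.76, 7.45 and 7.47 in wild-type explants. Knockout 1 lay above wild-type 2 and wild-type 3, so the groups overlapped. The change was -0.29 (SE 0.16, 95% interval -0.68 to 0.09, limma adjusted p = 0.835). It was -0.41 without knockout 1 (limma unadjusted p = 0.0395, where 1.51% of all genes were lower at a p under 0.05), -0.19 without knockout 3 and -0.19 without wild-type 1. Postn, the adhesion protein periostin of periosteum, valves and wounds, had 4.52, 4.23 and 4.22 in knockout explants, against 4.13, 4.26 and 4.05 in wild-type explants. The change of 0.18 (95% interval -0.13 to 0.49) was 0.08 without knockout 1. Dcn, the collagen-binding proteoglycan decorin, stood at -0.03, with the same deposited value on 5 of the 6 arrays, and at -0.06 without knockout 1. Fbn2, the fibrillin of developing microfibrils, stood at -0.07. Lum, below the filter, had 3.06, 2.80 and 2.80 in knockout explants, against 2.81, 2.81 and 2.84 in wild-type explants, and here too knockout 1 was highest.

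**Figure D3:**
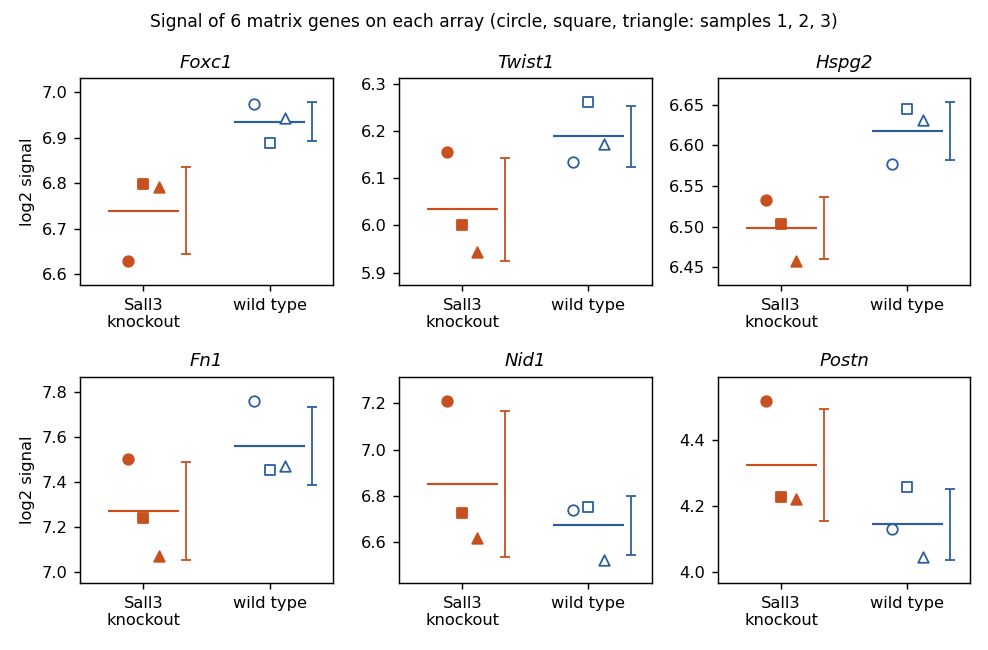
Log2 signal (vertical axis, which does not start at zero) of Foxc1, Twist1, Hspg2, Fn1, Nid1 and Postn on the 3 knockout arrays (filled, left) and the 3 wild-type arrays (open, right), with horizontal lines for group means and bars for 1 SD. The groups are apart in Foxc1 and Hspg2 and overlap in the other 4 genes, and knockout 1 is the highest array in Nid1 and Postn.

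The 3 transcription factors of mesenchyme were all lower in knockout explants, with a median of -0.16. Foxc1 encodes a forkhead factor of the mesenchyme around the eye and of vessels, and had 6.63, 6.80 and 6.79 in knockout explants, against 6.97, 6.89 and 6.94 in wild-type explants. The mean was 6.74 ± 0.10 in knockout and 6.93 ± 0.04 in wild-type explants (SD, n = 3 each), and the groups did not overlap. The change was -0.20 (SE 0.10, 95% interval -0.44 to 0.05, limma adjusted p = 0.812). With 1 row per gene the limma unadjusted p was 0.0219, and the adjusted p 0.923. In the deposited table knockout 2 and wild-type 2 had the same value, so the groups met there. Its relative Foxc2, also of vessels and lymphatics, had 6.72, 6.56 and 6.61 in knockout explants, against 6.48, 6.91 and 6.68 in wild-type explants. The wild-type arrays of Foxc2 spanned all knockout arrays, and its change of -0.06 was 0.0505 without wild-type 2 and -0.10 without knockout 1. Twist1, a helix-loop-helix factor of cranial mesenchyme, had 6.16, 6.00 and 5.94 in knockout explants, against 6.13, 6.26 and 6.17 in wild-type explants. Knockout 1 lay just above wild-type 1, and the change of -0.16 (95% interval -0.41 to 0.10) was -0.22 without knockout 1. As deposited, all 3 knockout arrays of Twist1 lay below the wild-type arrays.

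The bases before the start of Foxc1, the gene with the smallest p of the set, are from RefSeq (GRCm38.p6, chr13:31806396-31806645, plus strand), with a CCAAT box read on the other strand and a GC box in capitals.
Foxc1: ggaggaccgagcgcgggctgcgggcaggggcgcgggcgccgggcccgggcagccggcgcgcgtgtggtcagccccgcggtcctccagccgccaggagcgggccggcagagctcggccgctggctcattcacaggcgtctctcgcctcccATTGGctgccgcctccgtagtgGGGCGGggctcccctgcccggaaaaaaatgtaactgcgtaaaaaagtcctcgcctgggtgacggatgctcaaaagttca
Beside the 5 GC boxes of Hspg2, Foxc1 has 1, and no TATA box in this window.

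Genes that make, bind, cut or signal to the matrix were read from 9 further lists with 141 genes, of which 126 were measured. In limma 0 of the 126 passed over all clusters and 0 at an unadjusted p under 0.05. Of these genes 84 had lower and 42 higher values, with a median of -0.02 and a range from -0.23 to 0.26. Every knockout value was below every wild-type value in 19 of the 126 and above it in 0, beside the 11.2% and 1.7% of all genes. Without knockout 1, 94 of the 126 moved by over 1.5 times or turned. The list medians then were -0.07 for other collagens, -0.08 for collagen synthesis and -0.07 for matrix receptors. For elastic fibres and other mesenchymal factors they were -0.06 and -0.05, beside -0.05 over all genes. The genes given here are those with the smallest p of each list.

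The other collagens, 18 of 18 measured, were lower in 14, with a median of -0.04. The lowest p-values belonged to Col11a2, the partner of Col11a1, at -0.18, to Col8a2, a collagen of the corneal endothelium, at -0.21, to Col5a3 at -0.13 and to the membrane collagen Col13a1 at -0.12. In these 4 genes the groups did not overlap on this scale, as in 7 of the 18, and none passed. Over all genes 11.2% were lower without overlap on this scale. As deposited, the groups met or overlapped in all 7. Col8a2 stood at -0.13 without knockout 1. Of the 4 other laminin and netrin genes measured, Lama3 stood at -0.16, Lamc3 at -0.09, Lamb3 at -0.05 and Ntn4 at 0.03, and without knockout 1 Lamc3 stood at -0.02 and Ntn4 at -0.04. In elastic fibres and microfibrils 12 of 13 genes were lower, with a median of -0.02, and Ltbp1, Ltbp3 and Ltbp4, which hold latent TGF-beta in the matrix, stood at -0.09, -0.08 and -0.07, with elastin (Eln) at -0.05. Without knockout 1 Ltbp1 and Ltbp4 stood at -0.17 and -0.10. The median of this list turned to 0.0022 without knockout 2.

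Enzymes of collagen synthesis and crosslinking were lower in 14 of 20, with a median of -0.04 that turned to 0.0035 without wild-type 2. The lysyl hydroxylase gene Plod2 stood at 0.26 and had 7.49, 6.95 and 6.90 in knockout explants, against 6.99, 6.98 and 6.58 in wild-type explants. The lysyl oxidase relative Loxl2 stood at 0.24 and the prolyl hydroxylase subunit P4ha1 at 0.17, and in all 3 genes knockout 1 was the highest array. Without it Plod2, Loxl2 and P4ha1 stood at 0.07, 0.09 and 0.09. Loxl4 stood at -0.13, with groups that did not overlap on this scale but met as deposited, and at -0.08 without knockout 1. Proteases and their inhibitors were higher in 10 of 15, with a median of 0.02, which was -0.06 without knockout 1. Mmp2, the gelatinase that cuts type IV collagen, stood at 0.18, Mmp16 at 0.14, Adamts4 at 0.09 and Adamts1 at -0.13. Without knockout 1 Mmp2 stood at 0.05, Mmp16 at 0.06 and Adamts1 at -0.22.

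Matrix receptors were lower in 12 of 17, with a median of -0.01 that turned to 0.01 as deposited. The integrin subunits Itgb5, Itga3 and Itga5 stood at -0.22, -0.15 and -0.10, and Itgb1, the beta subunit shared by collagen and laminin receptors, at 0.14. Without knockout 1 Itga3, Itga5 and Itgb1 stood at -0.09, -0.16 and 0.05. Small proteoglycans and matricellular genes were higher in 6 of the 9 measured, with a median of 0.04 that turned to -0.05 without knockout 1. Kera, the keratocan of the cornea, stood at 0.18, Fmod at 0.17, Bgn at 0.13 and Thbs2 at -0.08. Without knockout 1 Kera, Fmod and Bgn stood at 0.10, 0.05 and 0.06. Genes of TGF-beta signalling, a main inducer of matrix genes, were lower in 9 of 13, with a median of -0.07. Ccn1, a matricellular gene that serum and stretch induce, had 6.99, 6.68 and 6.95 in knockout explants, against 6.97, 7.11 and 7.23 in wild-type explants, a change of -0.23. Smad7, Tgfbr3 and Tgfbr2 stood at -0.14, -0.12 and -0.12. Of the other factors of mesenchyme 12 of 17 were lower, with a median of -0.01 that turned to 0.0175 without knockout 3, and Osr2, Prrx2, Foxd1 and Tbx15 stood at -0.15, -0.11, -0.10 and 0.13, with Prrx2 at -0.03 without knockout 1.

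**Figure D4:**
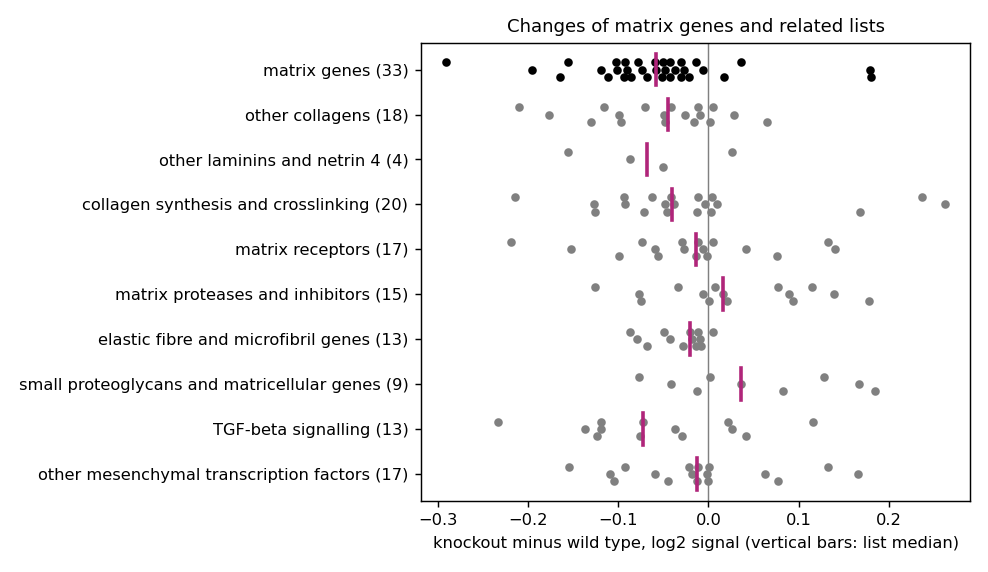
Change in knockout against wild-type explants (horizontal axis, log2 signal) of the matrix genes (black) and of 9 related lists (grey), 1 point per gene, with a vertical bar at each list's median and the number of genes in brackets. All points lie between -0.3 and 0.3, and every list median lies within 0.08 of zero.

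Of the 61 markers of cell types measured in 8 lists, 0 were called in limma and 0 had an unadjusted p under 0.05. The groups were apart in 6 of the 61, each lower in knockout explants, beside 11.2% lower and 1.7% higher over all genes. Among them were Scara5 of fibroblasts at -0.11 and Emcn and Tie1 of endothelium at -0.10 and -0.04. The others were Fgfr3 of astrocytes at -0.12, Crybb1 of lens at -0.17 and Nrl of photoreceptors at -0.10. As deposited, the groups stayed apart in Emcn and Crybb1, and met or overlapped in Scara5, Tie1, Fgfr3 and Nrl. Of the 7 fibroblast markers 6 were lower, with a median of -0.07 that turned to 0.0064 without knockout 3, and the summed log2 signal of the list ranged from 8.54 to 8.80 in knockout explants, against 8.67 to 8.73 in wild-type explants. Pdgfra, a receptor of fibroblasts and retinal astrocytes, had 6.82, 6.42 and 6.27 in knockout explants, against 6.47, 6.50 and 6.19 in wild-type explants, a change of 0.11 that was -0.04 without knockout 1. Thy1, which ganglion cells also express, stood at -0.04, or -0.09 without knockout 1. Markers of pericytes and smooth muscle were lower in 10 of 10, with a median of -0.06, beside 54.7% lower over all genes. Without knockout 1 not all of them were lower, the highest then standing at 0.04. Their summed log2 signal was 9.44 to 9.70 in knockout explants, against 9.53 to 9.71 in wild-type explants. Endothelial markers were lower in 7 of 10, with a median of -0.02. Their sum was 10.74 to 10.88 in knockout explants, against 10.82 to 10.89 in wild-type explants. This sum rests mainly on Kdr, the brightest marker, at 10.58, 10.43 and 10.44 in knockout explants, against 10.61, 10.53 and 10.52 in wild-type explants. In each of these lists the summed knockout range overlapped the wild-type range. Without knockout 1 the median change was -0.10 in fibroblasts, -0.11 in pericytes and smooth muscle and -0.05 in endothelium, beside -0.05 over all genes.

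The sums of glial and neighbouring tissues overlapped as well. The 7 Müller glia markers had a median of 0.01 and a sum of 12.14 to 12.39 in knockout explants, against 12.15 to 12.29 in wild-type explants, and the 5 astrocyte markers a median of -0.02 and a sum of 8.87 to 9.11 in knockout explants, against 8.89 to 9.04 in wild-type explants. The 9 lens markers had a median of -0.04 and a sum of 9.23 to 9.47 in knockout explants, against 9.32 to 9.49 in wild-type explants. The 7 measured markers of pigment epithelium and melanocytes had a median of -0.04 and a sum of 9.23 to 9.43 in knockout explants, against 9.29 to 9.43 in wild-type explants, and Rpe65 and Tyr lay below the filter. Knockout 1 was the highest knockout array by list median in the 7 lists of fibroblasts, vessels, glia, pigment cells and lens, as it was in 27 of the 33 matrix genes and in 75.2% of all genes. Without knockout 1 the median change was -0.06 in Müller glia, -0.09 in astrocytes, -0.09 in lens and -0.07 in pigment cells. In all genes it was -0.05 without knockout 1. By list median knockout 1 stood at 0.15 in Müller glia, 0.14 in astrocytes and 0.05 in fibroblasts. Over all genes the median of knockout 1 was 0.06. Among the marker lists, only its glial medians, and less so those of pigment cells and lens, stood above that. Of the related lists, small proteoglycans and matricellular genes stood at 0.26 and proteases at 0.19. TGF-beta signalling, matrix receptors and other mesenchymal factors lay just above the whole array. Other collagens, other laminins, collagen synthesis and elastic fibres lay below it, at 0.03, -0.03, 0.04 and 0.05.

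Summed in the same way over the matrix genes, where bright probe groups such as those of Agrn, Col6a1 and Col2a1 weigh most, the log2 signal ranged from 12.01 to 12.06 in knockout explants, against 12.09 to 12.12 in wild-type explants. The ranges were apart, as they were with the values as deposited, at 12.03 to 12.06 in knockout explants, against 12.08 to 12.12 in wild-type explants. Those of the transcription factors were also apart on both scales, at 8.08 to 8.11 in knockout explants, against 8.16 to 8.30 in wild-type explants after normalization. Collagens VI and IX and the basement membrane collagens were apart only after normalization, the latter with knockout up to 8.9096 and wild type from 8.9137. The fibrillar collagens were apart only as deposited, where knockout up to 9.6119 and wild type from 9.6121 nearly met. The other groups of matrix genes overlapped on both scales. Of the related lists, other collagens were apart only as deposited, and narrowly, with knockout up to 10.5773 and wild type from 10.5795. The same sum was not taken over all genes, so how often such sums lie apart is unknown. The part of the marked cells in the matrix values was not tested.

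**Figure D5:**
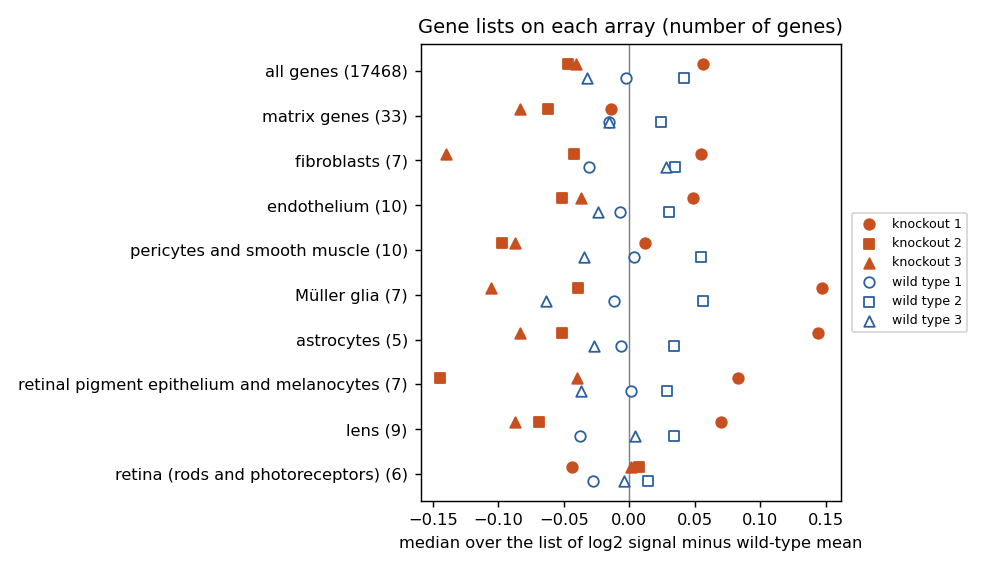
Median over each gene list of the log2 signal relative to each gene's wild-type mean (horizontal axis), for all genes, the matrix genes and 8 marker lists (rows, with the number of genes), with knockout arrays filled and wild-type arrays open. Knockout 1 lies at the right in the glial lists at 0.15 and 0.14, and near zero in the matrix genes.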

How the data were processed

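Retinal explants of Sall3 knockout and wild-type mice were measured on 6 arrays, 3 per group, with groups and sample numbers from the sample titles. The deposited table holds log2 values per transcript cluster, a scale inferred from their range of 1.48 to 13.86. Per the submitters' processing notes, Affymetrix Expression Console, PLIER and build mm8 were used, in roles not stated. How the authors corrected background or scaled arrays is not given. Signal over background is unknown, and the number of arrays limits the precision.

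Clusters with 1 symbol (22608 of 100843) were named from the platform annotation, 22101 of them updated through gene identifiers in a RefSeq table of GRCm38.p6, whose coordinates were not tied to the probes. Promoter windows of the same build came from RefSeq, and the 250 bases before each start were searched for motifs on both strands. Column medians differed by 0.103, so arrays were quantile normalized. Clusters with a mean at or above the 25th percentile, a log2 value of 3.70, were kept (75632). The groups were compared in limma 3.58.1 (R 4.3.3) with lmFit and eBayes, two-sided, at a threshold of 0.05 after Benjamini-Hochberg adjustment over every kept cluster. The fit was tested on simulated data with independent noise and no equal values. The changes put in were larger than those of any matrix gene, so its power for these was not tested.

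The members, lists and tests were chosen with earlier results of these data known. All 36 members are named, and of each related list the 4 genes with the smallest p. Of each marker list at most the 2 brightest, those below the filter and those with groups apart are named. Alternatives were other scalings, filters, variance models, array weights, a replicate block, 1 row per gene, cluster means and each array left out. Figures were drawn with matplotlib 3.10.9 (Python 3.11.15).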

Additional observations from a re-analysis of the deposited data

How the results depend on the processing

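No matrix gene was called in limma under any of the 19 alternatives or at an adjusted p under 0.1, and the median change stayed below zero, between -0.08 without knockout 1 and -0.04 with median centring, and was -0.038 without wild-type 2. At an unadjusted p under 0.05, the 0 lower genes became 1 with array weights (beside 1.82% of all genes), 2 with 1 row per gene (3.4%), 1 with 1 row per gene and an intensity trend (3.45%), 2 with the mean of clusters (3.41%), and 0 to 1 with an array left out, the 1 being Fn1 without knockout 1 (1.51%). Chosen after seeing the data, 1 row per gene gave 6 without knockout 1 (beside 6.2% of all genes) and 2 with the values as deposited (beside 2.01%). Groups that did not overlap numbered 9, and 3 as deposited or 6 with median centring (5.36% of all genes).

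Of the 33 genes 24 kept their sign in all alternatives. Col5a1 turned to 0.0063 as deposited and 0.008 with median centring, and Lama1 to 0.0263 and 0.0279. With array weights Col9a1 stood at -3e-04 and Lama4 at -0.0433. Leaving out 1 array, the range was -0.0061 to 0.0885 for Col9a1, -0.0599 to 0.069 for Lama4, -0.0011 to 0.297 for Nid1, -0.0343 to 0.009 for Col11a1, -0.0592 to 0.0093 for Dcn, -0.0992 to 0.0124 for Lamc1, -0.0451 to 0.0055 for Col5a1 and -0.1628 to 0.0505 for Foxc2. The cause of these turns was not tested.

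Deviations of same-numbered arrays from their group means had correlations of 0.01, -0.09 and 0.08. With 3 arrays per group these cannot show whether equal sample numbers share a litter or culture run. With the replicate block the median change was -0.06 and 0 genes were called. With 3 arrays per group, the SE of the matrix genes' changes was 0.0848 to 0.1834.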
